A study of Mus musculus with 8 samples.

Results

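The Prader-Willi and Angelman domain is a cluster of imprinted genes in central mouse chromosome 7, and 7 of its genes were followed here: *Snrpn*, *Ndn*, *Magel2*, *Mkrn3*, *Peg12*, *Ube3a* and *Atp10a*. They were chosen by symbol from the 26263 genes of the count files, and all 7 had a row and passed the filter on low counts. RNA-seq of polyA RNA was analysed from embryonic stem cells (ESCs) and from neural precursor cells (NPCs) derived from them at day 12 of *in vitro* corticogenesis, in hybrids between the strains C57BL/6 (B) and JF1 (J). The B/J line BJE2 (C57BL/6 x JF1) and the J/B line JBE6 (JF1 x C57BL/6) each gave 2 ESC and 2 NPC libraries, so that there were 8 libraries in 4 groups. ESCs of both lines grew on gelatin in a medium with LIF, BMP4 and an inhibitor of GSK3-β, and the labels name no deletion in any group. Per the study's methods, NPCs were derived on Matrigel in a defined default medium that held B27 (lacking vitamin A) and dorsomorphin homolog 1. The surface and the medium thus changed with the stage and cannot be told apart from it. Each cross was 1 cell line, so the cross and the line cannot be told apart, and nothing in the labels says whether the 2 replicates of a group were separate cultures, so p-values measure only the spread between these libraries. The counts sum both parental alleles. Allelic expression was not analysed here.

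Imprinted genes are expressed from only one parental allele, and in this domain the choice is set by a differentially methylated region at the *Snrpn* promoter that is methylated on the maternal allele. *Snrpn*, *Ndn*, *Magel2*, *Mkrn3* and *Peg12* are expressed from the paternal allele. *Ube3a* is expressed from both alleles in most tissues and from the maternal allele in neurons, where the paternal allele is silenced by a long antisense transcript that continues from *Snrpn* through *Snhg14*, and *Atp10a* has been described as maternally expressed in some tissues and strains. Loss of the paternal genes in humans underlies Prader-Willi syndrome and loss of maternal UBE3A underlies Angelman syndrome.

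On the mm39 (GRCm39) assembly, the 7 genes span 3.81 Mb, from *Atp10a* (chr7:58305914-58479478, plus strand) to *Peg12* (chr7:62111619-62114258, minus strand). *Ube3a* lies at chr7:58878492-58961832 on the plus strand and *Snrpn* at chr7:59630427-59820763 on the minus strand. The GENCODE canonical transcripts of *Atp10a*, *Ube3a* and *Snrpn* have 21, 11 and 10 exons. *Ndn* (chr7:61995473-62000010, plus strand), *Magel2* (chr7:62026758-62031388, plus strand), *Mkrn3* (chr7:62067341-62069887, minus strand) and *Peg12* each have 1 exon and lie together within 119 kb, 2341 kb or more from the start of the GENCODE canonical *Snrpn* transcript. RefSeq start sites of *Snrpn* lie up to 445 kb nearer.

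The promoters of the 4 genes that passed the test between the stages are shown because 3 of them, close neighbours, rose together while *Snrpn* fell. Each sequence runs from 250 bases before the RefSeq start site to 30 bases after it, on the gene's own strand, with CG dinucleotides, the sites of DNA methylation in mammals, in capitals. The sequences are those of the RefSeq promoter table (GRCm38.p6), each of which matched GRCm39 chromosome 7 once, and the coordinates given are those of the match. For *Snrpn* the table has 4 start sites, and the one shown is nearest the start of the canonical transcript. The start site of *Ndn* in RefSeq lies inside the longer GENCODE gene.
Snrpn, chr7:59654918-59655197, minus strand: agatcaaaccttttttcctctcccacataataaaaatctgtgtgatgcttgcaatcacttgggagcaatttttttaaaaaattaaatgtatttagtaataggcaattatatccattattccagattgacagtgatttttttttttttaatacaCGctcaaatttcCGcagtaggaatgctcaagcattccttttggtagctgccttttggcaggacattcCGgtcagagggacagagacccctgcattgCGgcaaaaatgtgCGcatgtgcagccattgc
Ndn, chr7:61997775-61998054, plus strand: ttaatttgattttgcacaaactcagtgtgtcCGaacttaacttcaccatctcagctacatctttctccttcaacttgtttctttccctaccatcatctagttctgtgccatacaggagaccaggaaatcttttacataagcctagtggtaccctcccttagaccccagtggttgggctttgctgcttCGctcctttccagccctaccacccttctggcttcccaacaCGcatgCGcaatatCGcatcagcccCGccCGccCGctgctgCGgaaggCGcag
Magel2, chr7:62026477-62026756, plus strand: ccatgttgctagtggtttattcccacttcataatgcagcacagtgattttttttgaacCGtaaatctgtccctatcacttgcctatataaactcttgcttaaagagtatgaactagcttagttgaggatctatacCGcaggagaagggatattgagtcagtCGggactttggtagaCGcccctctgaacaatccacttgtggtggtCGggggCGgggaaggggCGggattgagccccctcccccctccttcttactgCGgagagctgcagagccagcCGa
Peg12, chr7:62114229-62114508, minus strand: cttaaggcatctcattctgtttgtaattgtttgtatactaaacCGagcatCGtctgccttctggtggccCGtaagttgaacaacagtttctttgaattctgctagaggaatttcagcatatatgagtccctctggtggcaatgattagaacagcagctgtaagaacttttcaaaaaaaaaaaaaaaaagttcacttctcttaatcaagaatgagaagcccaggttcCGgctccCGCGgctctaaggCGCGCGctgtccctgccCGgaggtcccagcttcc

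In the full window of 300 bases, which ends 50 bases after the start site, the *Snrpn* promoter held 7 CG dinucleotides, *Ndn* 11, *Magel2* 10 and *Peg12* 12. The other members held more, with 15 in *Mkrn3*, 20 in *Atp10a* and 29 in *Ube3a*. The median of 32851 RefSeq promoters of the same length was 7. The hexamer TGCCGC, bound by the imprinting factor ZFP57 when its CG is methylated, occurred once in the *Snrpn* window on either strand, read there as its reverse complement at position 249 counted from the 5′ end of the window. It occurred in no window of the other 6 genes and at none of the 3 further *Snrpn* start sites. Over both strands, 11.6% of the RefSeq promoters held this hexamer.

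The libraries held 22537138 to 32706015 counts on genes. Levels are given as CPM, a gene's share of its library scaled to a common total, after TMM, a correction for differences in RNA composition between libraries. Differences were tested by quasi-likelihood in edgeR, and p-values were adjusted over 16399 genes (Benjamini-Hochberg, threshold 0.05). Summed over 10 markers each, pluripotency genes lay between 4995 and 8174 CPM in ESCs and between 89.2 and 260.3 CPM in NPCs, and neural precursor genes between 585 and 993.5 CPM in ESCs and between 380 and 1115 CPM in NPCs. Of the 10 neural precursor markers 8 were called higher, among them *Nes* for the filament nestin (log2 fold change 2.09), 1 lower (*Sox2*, -2.27) and 1 did not pass. Of 10 neuronal markers 8 were called higher, among them the tubulin gene *Tubb3* (1.23), 1 lower (*Stmn2*, -1.51, not called when scaled to 3 housekeeping genes, *Tbp*, *Gusb* and *Gapdh*) and 1 did not pass. Markers of other cell types were also higher in NPCs. The sum of 10 trophoblast markers rose from 62.6 to 200.9 CPM in ESCs to 1238 to 3481 CPM in NPCs, with 9 of 10 called higher, and that of 10 fibroblast and mesenchyme markers from 47.4 to 125.7 CPM to 941.3 to 2167 CPM, with 9 of 10 called higher. In bulk RNA, fewer cells that express a gene and less RNA per cell cannot be told apart, and the part of these cell types in the values that follow was not tested.

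Between ESCs and NPCs, 3 of the 7 genes were higher in NPCs, 1 was lower and 3 did not pass the test. Over all genes tested, 37.5% were called higher and 31.9% lower, so the share of members called higher was near the background. With RLE factors, another correction for RNA composition, these shares were 37.8% and 31.5%, with library totals 48.9% and 20.9%, and after scaling to the housekeeping genes 51.6% and 17.2%. The members called higher were *Ndn*, *Magel2* and *Peg12*, all paternally expressed and all within the group of intronless genes. The member called lower was *Snrpn*, at the imprinting centre. The median log2 fold change was 0.41 over the 7 genes and 2.25 over the 5 paternally expressed ones, beside 0.17 over all genes tested. In 35.3% of all genes the 4 NPC libraries lay above the 4 ESC libraries, and in 31.2% they lay below, as they did in 3 members and 1 member here.

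**Figure D1:**
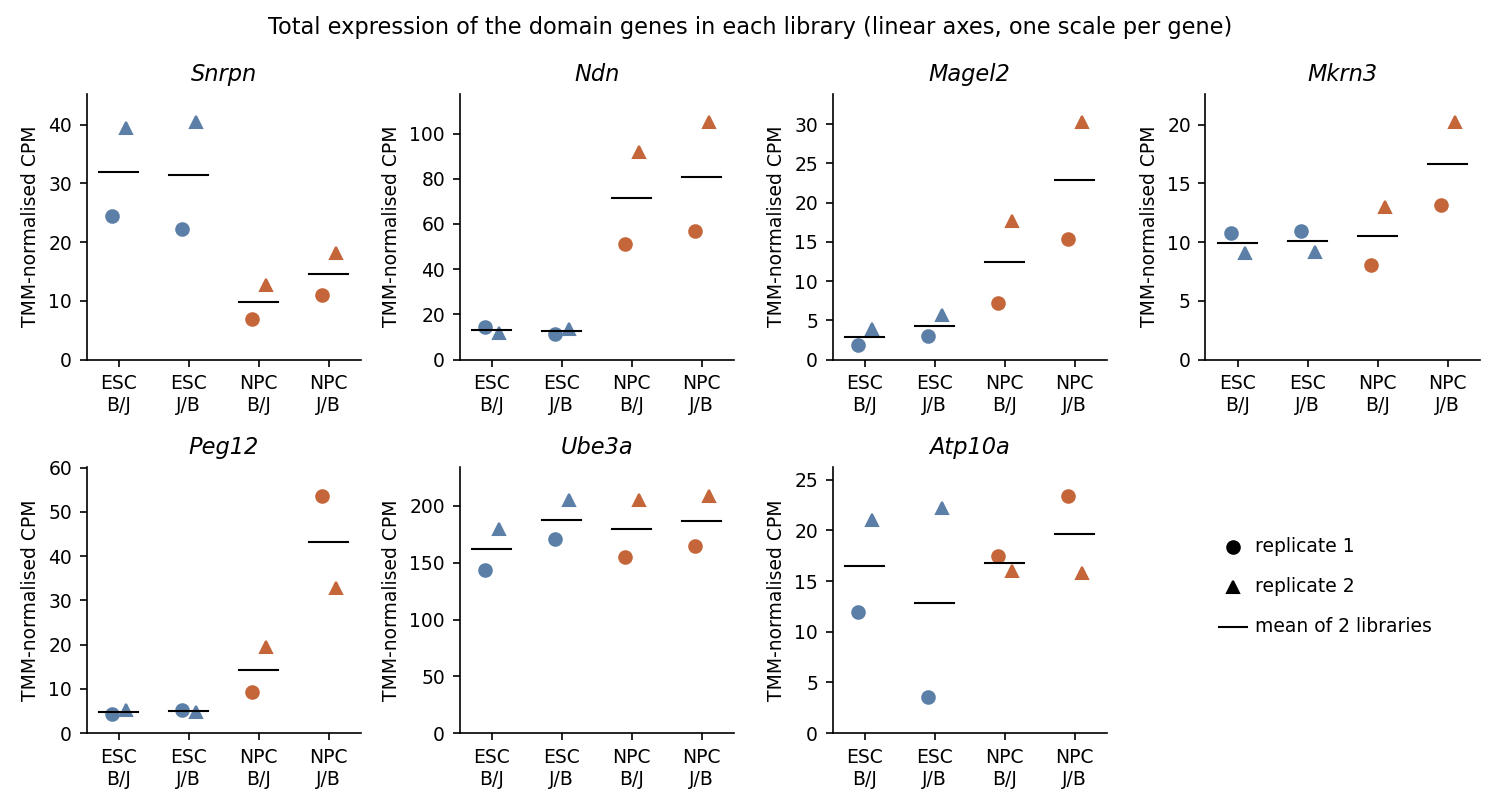
Level of each gene in each library, in TMM-normalised CPM on linear axes that start at 0 with a scale of its own for each gene; circles are replicate 1, triangles replicate 2 and lines the mean of the 2 libraries of a group. *Ndn*, *Magel2* and *Peg12* were higher in all 4 NPC libraries than in any ESC library, *Snrpn* was lower, and *Mkrn3*, *Ube3a* and *Atp10a* overlapped.

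*Ndn* encodes necdin, a protein of the MAGE family that favours cell cycle exit and survival of neurons. It was read at 14.6 and 12.0 CPM in the B/J ESCs and at 11.4 and 13.6 CPM in the J/B ESCs (replicates 1 and 2). In NPCs it was read at 51.0 and 91.7 CPM in B/J and at 56.9 and 105.1 CPM in J/B. The ESC libraries were close to each other, and every NPC library was several times above all of them. The mean rose from 12.9 ± 1.5 CPM to 76.2 ± 26.4 CPM (SD, n = 4 libraries per stage), with a log2 fold change of 2.56 (SE 0.277, edgeR adjusted p = 1.34e-04). This change was called under every alternative tried, in both crosses.

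*Magel2* encodes another MAGE protein, which acts with the ubiquitin ligase TRIM27 on endosomes to activate the WASH complex. It was read in ESCs at 1.91 and 3.85 CPM in B/J and 3.04 and 5.63 CPM in J/B, from 44 to 132 counts. In NPCs it reached 7.27 and 17.7 CPM in B/J and 15.4 and 30.3 CPM in J/B, from 255 to 937 counts. The stages did not overlap, although the lowest NPC library was only slightly above the highest ESC library. Its mean rose from 3.61 ± 1.56 CPM to 17.7 ± 9.53 CPM (SD, n = 4 libraries per stage), a log2 fold change of 2.25 (SE 0.438, edgeR adjusted p = 0.00247).

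*Peg12*, also known as *Frat3*, encodes a relative of the FRAT proteins, which bind the kinase GSK3 and favour Wnt signalling. In ESCs it was even across libraries, with 4.25 and 5.35 CPM in B/J and 5.28 and 4.69 CPM in J/B. In NPCs it was read at 9.26 and 19.4 CPM in B/J and at 53.7 and 32.8 CPM in J/B. All NPC libraries were above all ESC libraries, and both J/B NPC libraries were above both B/J NPC libraries. The mean rose from 4.89 ± 0.518 CPM to 28.8 ± 19.2 CPM (SD, n = 4 libraries per stage), with a log2 fold change of 2.35 (SE 0.303, edgeR adjusted p = 3.10e-04).

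*Snrpn* encodes SmN, a protein of the Sm ring around spliceosomal small nuclear RNAs that is abundant in brain. In ESCs it was read at 24.4 and 39.5 CPM in B/J and at 22.3 and 40.5 CPM in J/B. In NPCs it was read at 6.98 and 12.7 CPM in B/J and at 11.0 and 18.2 CPM in J/B. No NPC library reached the lowest ESC library, and in each of the 4 groups replicate 2 was above replicate 1. The mean fell from 31.7 ± 9.67 CPM to 12.2 ± 4.65 CPM (SD, n = 4 libraries per stage), with a log2 fold change of -1.40 (SE 0.324, edgeR adjusted p = 0.00567). Scaled to the 3 housekeeping genes, the change was -0.76 and the call was lost (edgeR adjusted p = 0.114). The reading frame of *Snurf*, which shares 216 exon bases with *Snrpn* on the same strand, had no row in the count files, and no source used here says how reads of shared exons were assigned.

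*Mkrn3* encodes a makorin ubiquitin ligase that restrains the onset of puberty. It was read at 10.8 and 9.11 CPM in B/J ESCs, at 11.0 and 9.17 CPM in J/B ESCs, at 8.06 and 13.0 CPM in B/J NPCs and at 13.2 and 20.2 CPM in J/B NPCs. The stages overlapped through the first B/J NPC library, which was the lowest of all 8, while the other 3 NPC libraries were above every ESC library. The log2 fold change was 0.41 (95% interval -0.19 to 1.0, edgeR adjusted p = 0.188), so a rise of the size seen in its 3 intronless neighbours is outside the interval.

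*Ube3a* encodes the ubiquitin ligase E6-AP. It was read at 144 and 179.7 CPM in B/J ESCs, at 171 and 205 CPM in J/B ESCs, at 155 and 205 CPM in B/J NPCs and at 165 and 209 CPM in J/B NPCs. The ranges of the stages nearly coincided, and replicate 2 was above replicate 1 in each group. The log2 fold change was 0.07 (95% interval -0.30 to 0.44, edgeR adjusted p = 0.701). With 3200 to 6472 counts per library this was the best measured member, and both bounds of its interval lay within 1 log2 unit of 0.

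*Atp10a* encodes a P4-ATPase that moves phosphatidylcholine to the inner leaflet of the plasma membrane. It was read at 11.9 and 21.0 CPM in B/J ESCs, at 3.52 and 22.3 CPM in J/B ESCs, at 17.5 and 16.0 CPM in B/J NPCs and at 23.4 and 15.8 CPM in J/B NPCs. The first J/B ESC library, with 66 counts, was well below all others, and the other libraries overlapped between stages. The log2 fold change was 0.31 (95% interval -0.86 to 1.49, edgeR adjusted p = 0.596). Without the second J/B ESC library it was 1.26 and called (edgeR adjusted p = 0.00828), and without the first it was -0.08 (edgeR adjusted p = 0.808). In such fits the library left alone in its group is assumed to vary like those of the other groups. With all 8 libraries and a replicate block within each stage it was 1.54 and called (edgeR adjusted p = 0.0184).

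Some calls depended on the scaling. The 3 housekeeping genes did not move alike between the stages. The ratio of the NPC mean to the ESC mean, in TMM-normalised CPM, was 0.371 for *Gapdh*, 0.62 for *Tbp* and 1.22 for *Gusb*. Over all genes, the median log2 fold change was 0.17 with TMM, 0.65 with library totals and 0.80 with scaling to the housekeeping genes, and changes are therefore also given relative to that shift. *Mkrn3* was called higher with library totals (0.89, edgeR adjusted p = 0.0154) and after scaling to the housekeeping genes (1.07, edgeR adjusted p = 0.0135), and so was *Ube3a* (0.55 and 0.71, edgeR adjusted p = 0.0240 and 0.0219). Relative to the median gene, *Mkrn3* differed by 0.23, 0.24 and 0.26 and *Ube3a* by -0.10, -0.10 and -0.09 under the 3 scalings. In the same order, *Snrpn* stood at -1.57, -1.58 and -1.56 and *Ndn* at 2.39, 2.39 and 2.41 from the median gene. A change of scaling shifts all genes by nearly the same amount. That the values relative to the median stayed alike is therefore arithmetic and no check on the calls.

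**Figure D2:**
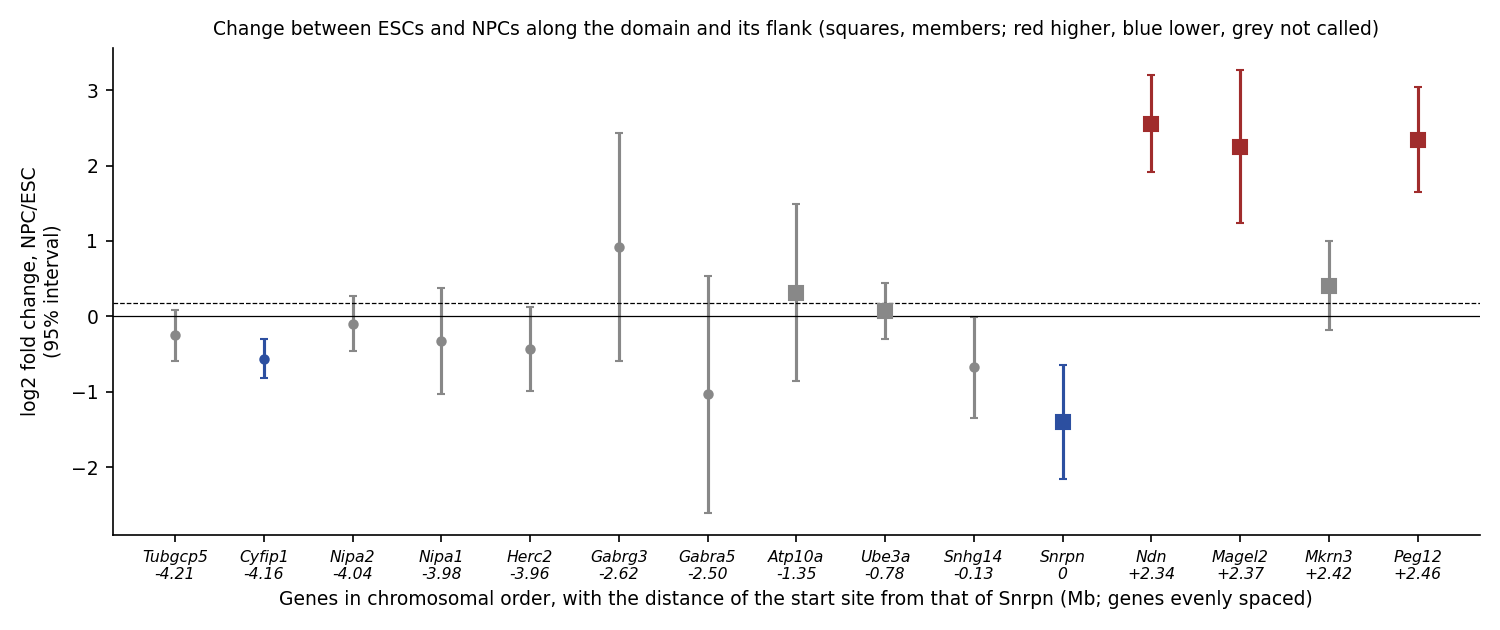
Log2 fold change between NPCs and ESCs (95% interval) of the domain genes (squares) and the flanking genes tested (circles), in chromosomal order with the distance of each start site from that of the canonical *Snrpn* transcript in Mb; red is called higher, blue lower and grey not called, and the dashed line is the median of all genes (0.17). With TMM, as drawn, *Ndn*, *Magel2* and *Peg12* are called higher, with *Mkrn3* between the last 2 not called; scaled to library totals or to the housekeeping genes, *Mkrn3* and *Ube3a* were called higher too, and no gene beyond *Peg12* was listed.

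Of 11 flanking genes listed, 10 had a row and 8 were tested, of which 1 was called lower and none higher, beside 31.9% and 37.5% of all genes. It was *Cyfip1*, a regulator of actin and of translation at synapses, with a log2 fold change of -0.56 (edgeR adjusted p = 0.00255), which was not called with library totals and had the opposite sign with the housekeeping genes. *Snhg14*, the host of small nucleolar RNAs and of the *Ube3a* antisense transcript, was read at 27.6 and 45.6 CPM in B/J ESCs, 30.6 and 65.7 CPM in J/B ESCs, 18.4 and 26.3 CPM in B/J NPCs and 28.1 and 33.7 CPM in J/B NPCs. Its stages overlapped, and its log2 fold change was -0.68 (95% interval -1.35 to -0.01, edgeR adjusted p = 0.0671). *Snhg14* and *Ube3a* share 1803 exon bases on opposite strands, and no source used here says whether the counting used the strand. *Herc2*, which encodes a ligase that activates E6-AP, was at -0.44 (edgeR adjusted p = 0.138). The GABA receptor genes *Gabra5* and *Gabrg3* were at -1.03 and 0.92, and *Nipa1*, *Nipa2* and *Tubgcp5* at -0.33, -0.10 and -0.25, all without a call with TMM. Scaled to the housekeeping genes, *Nipa2* was called higher (0.51, edgeR adjusted p = 0.0276), and *Herc2*, *Nipa1* and *Tubgcp5* were above 0 without a call, as they were with library totals. *Oca2* was too low to be tested, and *Ipw* was listed at 0 in all 8 libraries.

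Levels of different genes can be compared only per length. Per kilobase of the canonical transcript, the order in ESCs was *Ube3a* (17.0 ± 2.46 CPM per kb, SD, n = 4 libraries), *Snrpn* (8.27 ± 2.53), *Mkrn3* (3.93 ± 0.396), *Ndn* (3.49 ± 0.406), *Atp10a* (2.60 ± 1.55), *Peg12* (1.85 ± 0.196) and *Magel2* (0.779 ± 0.338). *Ube3a* lay above *Snrpn* and *Snrpn* above the rest in every library range, while *Mkrn3*, *Ndn* and *Atp10a* overlapped, as did *Atp10a* with *Peg12* and with *Magel2*. In NPCs the order was *Ndn* (20.6 ± 7.13 CPM per kb), *Ube3a* (17.9 ± 2.68), *Peg12* (10.9 ± 7.27), *Mkrn3* (5.34 ± 1.97), *Magel2* (3.81 ± 2.06), *Atp10a* (3.22 ± 0.632) and *Snrpn* (3.20 ± 1.22). Each neighbour in this order overlapped the next. *Snrpn* moved from the second place to the last and *Ndn* from the fourth to the first. The places depend on the gene model. With the RefSeq length of *Ndn*, its level per kb was 7.81 in ESCs and 46.1 in NPCs. With all annotated exons merged, *Ube3a* was at 8.04 in ESCs and 8.44 in NPCs and *Snrpn* at 3.37 and 1.30, below *Ndn* and *Mkrn3* in ESCs.

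Whether the change between stages was the same in both crosses was asked next, since the crosses swap which strain gives the maternal and which the paternal allele. In B/J, *Ndn* (2.42), *Magel2* (2.11) and *Peg12* (1.58) were called higher and *Snrpn* (-1.70) lower, beside 30.1% and 25.6% of all genes. The calls of *Magel2* and *Peg12* in B/J were lost with limma-voom (2.03 and 1.46, limma-voom adjusted p = 0.0517 and 0.0552), and that of *Peg12* also with a replicate block within each stage (1.51, edgeR adjusted p = 0.0544). In J/B, *Ndn* (2.69), *Magel2* (2.39) and *Peg12* (3.12) were called higher, beside 29.1% of all genes, and no member was called lower, beside 25.3%. *Snrpn* was at -1.10 in J/B (95% interval -2.16 to -0.05, edgeR adjusted p = 0.0725), and DESeq2 called it lower there (adjusted p = 0.0441). It was also called lower in J/B with a replicate block and with a replicate block within each stage. In B/J, the call of *Snrpn* was lost with library totals (-1.23, edgeR adjusted p = 0.0643) and with the housekeeping genes (-1.16, edgeR adjusted p = 0.112). The test of the interaction of stage and cross called none of the 7 and 0% of all genes, so the crosses were not shown to differ in *Snrpn* (difference 0.59, 95% interval -0.89 to 2.08). *Peg12* had an interaction of 1.54 (95% interval 0.19 to 2.90), which ran from 1.09 without the first B/J NPC library to 2.15 without the second, and was the 1 member with an unadjusted p below 0.05 (0.0304, edgeR adjusted p = 1), among 573 such genes. DESeq2 and limma-voom called 0 members for the interaction too.

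**Figure D3:**
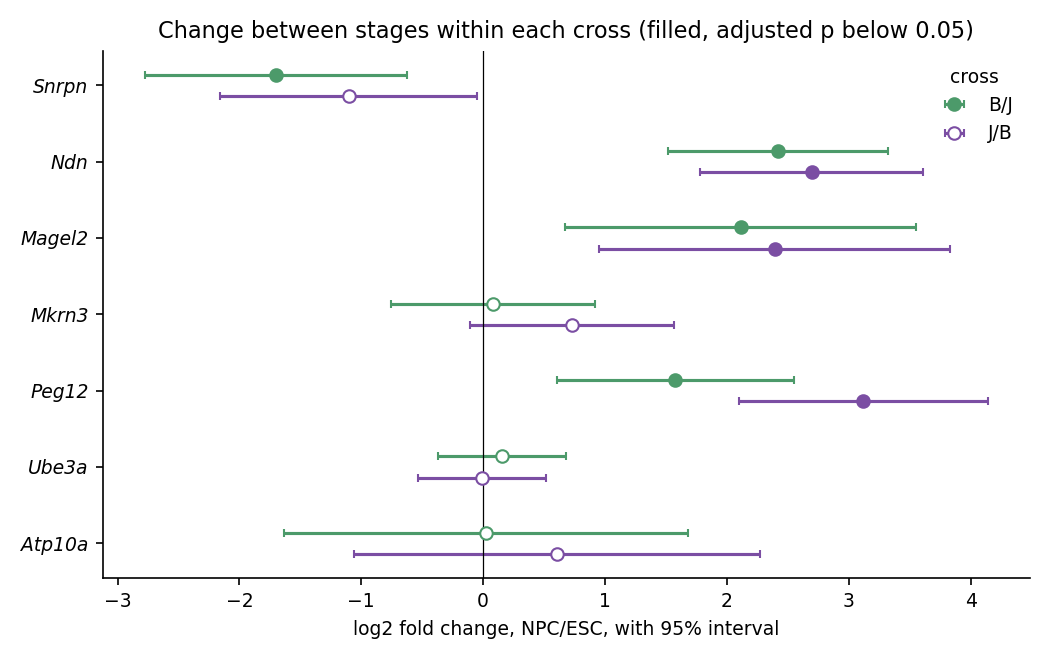
Log2 fold change between NPCs and ESCs within each cross, with 95% intervals; filled points passed the threshold. The intervals of the 2 crosses overlap for each gene, and *Peg12* has the widest gap between them, 1.58 for B/J against 3.12 for J/B.

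Leaving out 1 library left its group with a single library, and the spread then came from the other groups. In B/J, *Magel2* (2.11 with all libraries) was at 1.70 without the first ESC library (edgeR adjusted p = 0.126) and at 1.34 without the second NPC library (0.127). *Peg12* in B/J (1.58) was at 1.42 and 0.95 in the same fits (edgeR adjusted p = 0.0892 and 0.0930), and at 1.75 without the second ESC library (0.0502). *Snrpn* in B/J (-1.70) was at -1.31 without the second ESC library (edgeR adjusted p = 0.0949) and at -1.32 without the first NPC library (0.0866). In J/B, *Magel2* (2.39) was at 2.02 without the first ESC library (edgeR adjusted p = 0.0692) and at 1.82 without the second NPC library (0.0849). In all of these fits the direction was kept and the call was lost. *Snrpn* in J/B was called without the first ESC library (-1.47, edgeR adjusted p = 0.0458), and *Atp10a* without the second (2.50, edgeR adjusted p = 0.00752). *Ndn* was called in both crosses whichever library was left out.

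Between the crosses within a stage, no member was called. In ESCs, 0 of the 7 had an unadjusted p below 0.05 with edgeR, among 346 genes that did, and 0% of all genes were called. The ESC means of *Ndn* were 13.3 ± 1.88 CPM in B/J and 12.5 ± 1.61 CPM in J/B, and those of *Peg12* 4.80 ± 0.772 and 4.99 ± 0.418 CPM (SD, n = 2 libraries each). In NPCs, 0.00610% of all genes were called. *Peg12* was at 14.3 ± 7.16 CPM in B/J and 43.3 ± 14.8 CPM in J/B (SD, n = 2 libraries each), a log2 difference of 1.60 (95% interval 0.64 to 2.55), with an unadjusted p of 0.00502 that did not pass the adjustment (edgeR, adjusted p = 0.734). The difference ran from 1.15 without the first B/J NPC library to 2.21 without the second. It was the 1 member among 1050 genes with an unadjusted p below 0.05 there. The differences of the other 6 in NPCs ran from 0.05 in *Ube3a* to 0.87 in *Magel2*, each with J/B higher, and with intervals that held 0. DESeq2 and limma-voom called 0 members in either stage.

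*Snrpn* was next set beside the genes of the same complex, since SmN takes the place of its close relative SmB/B', encoded by *Snrpb*, in the Sm ring. All 7 other Sm core genes were lower in NPCs, with a median log2 fold change of -1.11 beside 0.17 over all genes, of which 31.9% were called lower. Of the 7, 5 remained called with library totals, beside 20.9% of all genes, and 3 after scaling to the housekeeping genes, beside 17.2%, with no change of sign. The largest falls were those of *Snrpd2* (-1.44) and *Snrpd3* (-1.39). *Snrpb* was read at 301.9 and 309.6 CPM in B/J ESCs, 269 and 275 CPM in J/B ESCs, 140.2 and 114 CPM in B/J NPCs and 173 and 106 CPM in J/B NPCs. Its stages did not overlap, and its log2 fold change was -1.11 (SE 0.175, edgeR adjusted p = 8.26e-04), within the interval of that of *Snrpn* (-2.16 to -0.65).

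The share of *Snrpn* in the summed counts of *Snrpn* and *Snrpb* does not depend on scaling between libraries. It was 7.48% and 11.3% in B/J ESCs, 7.65% and 12.8% in J/B ESCs, 4.74% and 10.1% in B/J NPCs and 5.98% and 14.6% in J/B NPCs. The stages overlapped, and in every group replicate 2 was above replicate 1. The means were 9.82 ± 2.68% in ESCs and 8.85 ± 4.47% in NPCs (SD, n = 4 libraries), a difference of -0.97 percentage points (two-sided exact permutation test, p = 0.743, smallest possible 0.0286). *Snrpn* and *Snrpb* thus both fell, and the difference in their share was smaller than the spread between replicates. Against all Sm core genes of the list, the *Snrpn* share was 2.79 ± 0.726% in ESCs and 2.55 ± 1.33% in NPCs. *Snrpn* and *Snrpb* are similar in sequence, and the authors' minimum mapping quality of 20 drops reads mapped equally well to both.

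**Figure D4:**
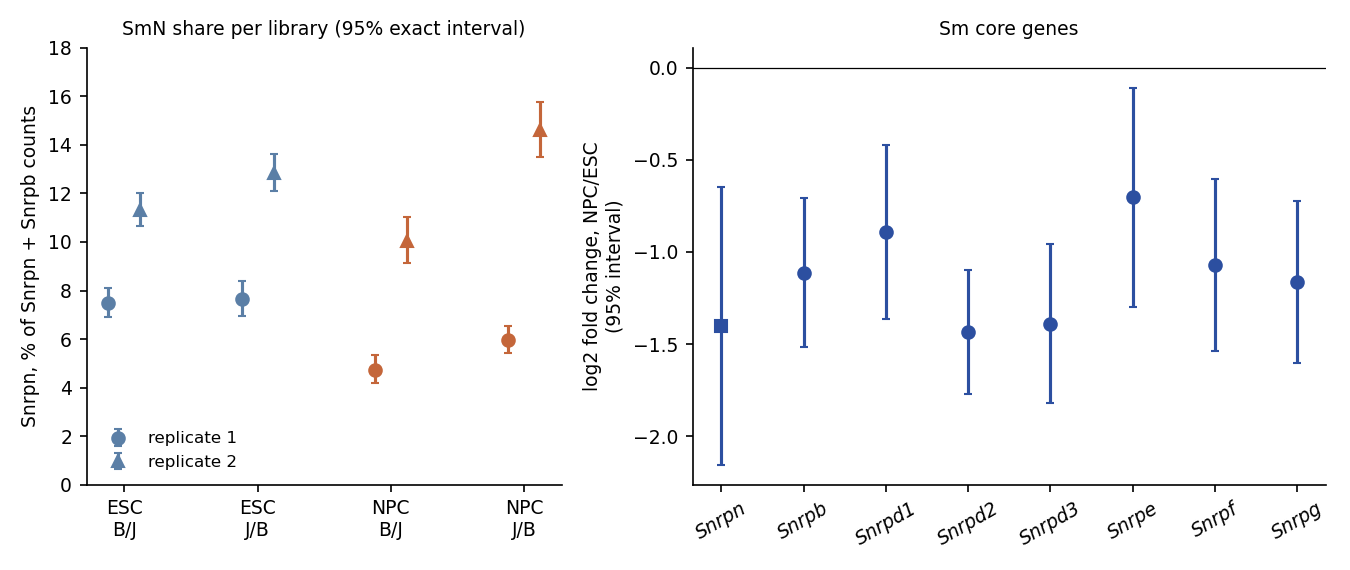
Left, share of *Snrpn* in the counts of *Snrpn* and *Snrpb* in each library, with exact 95% binomial intervals that cover counting error only (circles replicate 1, triangles replicate 2). Right, log2 fold change between NPCs and ESCs (95% interval) of *Snrpn* (square) and the 7 other Sm core genes (circles), all below 0; the share does not separate the stages.

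The relatives and partners of the other members moved in different directions, and their counts stand beside the 37.5% of all genes that were called higher and the 31.9% called lower. Of 7 tested genes of the MAGE family other than *Ndn* and *Magel2*, 4 were higher, 1 was lower and 2 did not pass, with the largest rises in *Magee1* (2.78) and *Maged2* (2.46) and the fall in *Mageb16* (-2.78), under each of the scalings tried. Of 11 genes for partners of MAGEL2 and for the WASH and retromer complexes, none was higher and 8 were lower. The largest falls were those of *Usp7*, a deubiquitinase that binds MAGEL2 and TRIM27 (-2.03), and *Vps26a*, a retromer subunit (-1.28). *Vps26b*, named after its values were seen, missed the threshold with TMM (0.31, edgeR adjusted p = 0.0533) and was called higher with the other 3 scalings. With the housekeeping genes 2 of the 11 were higher and 3 lower, beside 51.6% and 17.2% of all genes. In the makorin family, *Mkrn1* fell by 2.84 on the log2 scale, whereas *Mkrn2* did not pass (-0.34, edgeR adjusted p = 0.0539).

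For the FRAT and GSK3 list, beside *Peg12*, 3 of 8 were higher and 2 lower, beside the same 37.5% and 31.9% of all genes. With library totals 5 of 8 were higher, beside 48.9% of all genes, and with the housekeeping genes also 5, beside 51.6%. *Gsk3b* (1.53) and *Frat1* (0.98) had the largest rises, and *Axin1*, a scaffold of the complex that degrades β-catenin, and *Gsk3a* the falls (-0.93 and -0.45), that of *Gsk3a* with the opposite sign under library totals and the housekeeping genes and that of *Axin1* not called with the latter (-0.30). The inhibitor of GSK3-β was part of the ESC medium. Of 9 ubiquitin enzymes related to E6-AP, none was higher and 5 were lower with TMM, with the largest falls in *Huwe1* (-1.44) and *Ube3c* (-1.10). Scaled to library totals or to the housekeeping genes, 4 of the 9 were higher and 2 lower, beside the same shares of all genes called higher and 20.9% and 17.2% called lower. Of 14 tested P4-ATPases and partner subunits, the family of *Atp10a*, 7 were higher, led by *Atp8a2* (3.29) and *Atp11a* (2.56), and 1 was lower (*Atp10d*, -1.18), the latter not called with the housekeeping genes. Scaled to library totals or to the housekeeping genes, 11 of the 14 were higher, beside 48.9% and 51.6% of all genes.

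The 4 NPC libraries differed among themselves in their marker genes and in the domain genes. The sum of 10 neuronal markers was 387 CPM in the first B/J library, 995 CPM in the first J/B library, 1411 CPM in the second B/J library and 1916 CPM in the second J/B library. It lay between 364.6 and 550.8 CPM in ESCs, a range that held the first B/J NPC library. *Snrpn*, *Ndn*, *Magel2* and *Ube3a* had the same order of the 4 NPC libraries, and *Mkrn3* had it but for the middle pair, which lay at 13.2 and 13.0 CPM. The neuronal order also places replicate 1 below replicate 2, and the share of reads outside genes followed it (7.71%, 8.35%, 9.05% and 10.9%). In ESCs, *Snrpn*, *Magel2* and *Ube3a* were higher in replicate 2 too. The neuronal sum of replicate 2 was lower in B/J ESCs (471.4 beside 550.8 CPM) and higher in J/B ESCs (430.2 beside 364.6 CPM). The part of library differences in the order of the 4 NPC libraries was not tested. *Atp10a* followed neither marker sum and was lowest in the second J/B library (15.8 CPM) and highest in the first (23.4 CPM). *Peg12* had another order, with the highest value in the first J/B library, and this was the order of the summed neural precursor markers, at 380, 842.5, 1030 and 1115 CPM for the first and second B/J and the second and first J/B libraries. In the first B/J library, which had the lowest level of 6 of the 7 genes among NPCs, trophoblast markers summed to 3481 CPM, beside 1238 to 1858 CPM in the others. The part of these differences in cell content was not tested, and with 4 libraries no correlation is given.

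**Figure D5:**
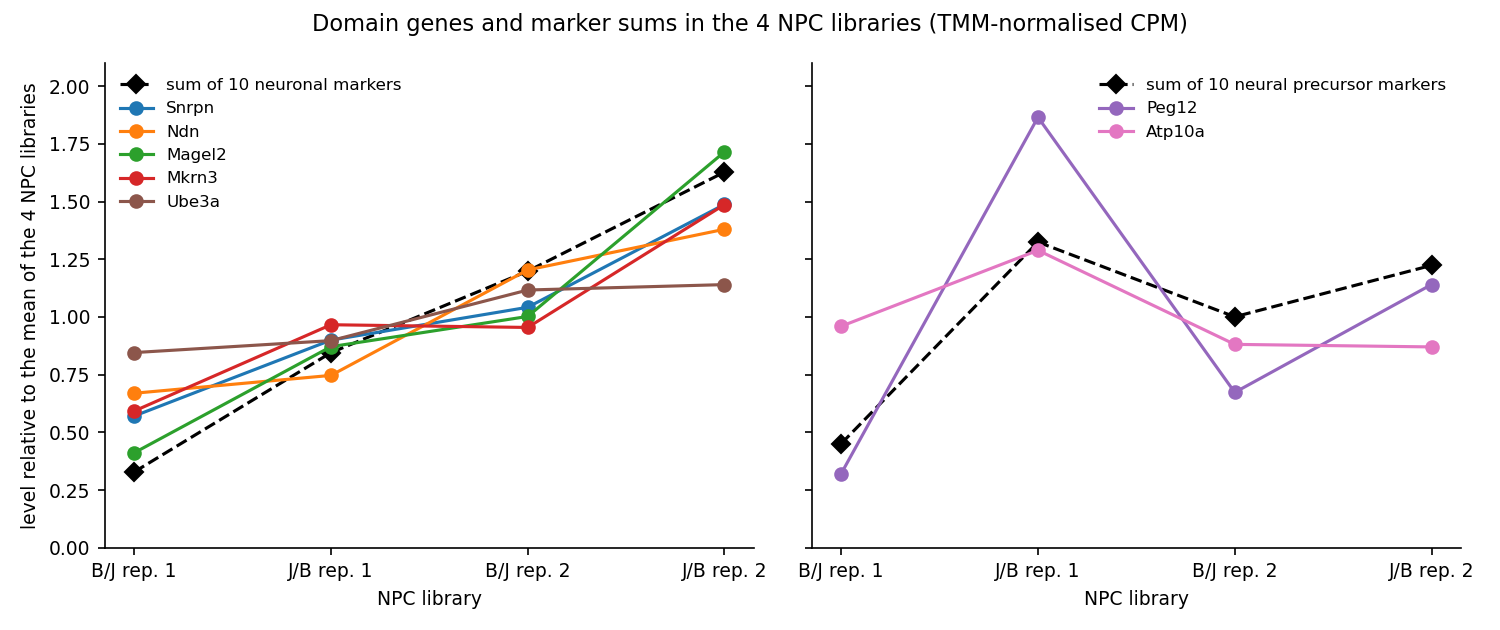
Levels of the domain genes and marker sums in the 4 NPC libraries, each divided by its mean over these libraries, in the order of the neuronal marker sum; the dashed lines are the sums of 10 neuronal (left) and 10 neural precursor (right) markers. *Snrpn*, *Ndn*, *Magel2* and *Ube3a* rise along the neuronal order, and *Peg12* peaks in the first J/B library as the neural precursor sum does. The neuronal order also places the replicate 1 libraries before the replicate 2 libraries.

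*Snrpn* and *Magel2* were at least 1.5 times higher in replicate 2 than in replicate 1 in all 4 groups, as were 1.54% of all genes. For *Snrpn* the ratios were 1.62 and 1.82 in B/J and J/B ESCs and 1.82 and 1.65 in B/J and J/B NPCs. For *Magel2* they were 2.02, 1.85, 2.43 and 1.97 in the same order. *Ube3a* was higher in replicate 2 in all groups by smaller ratios, 1.20 to 1.32, and *Snhg14* by 1.20 to 2.15. *Ndn* and *Mkrn3* had ratios of 0.819 to 1.20 in ESCs and 1.54 to 1.85 in NPCs. *Peg12* had ratios of 1.26 and 0.888 in B/J and J/B ESCs and 2.09 and 0.611 in B/J and J/B NPCs, and *Atp10a* 1.76, 6.32, 0.918 and 0.675 in the same order. Libraries were made with either of 2 kits, TruSeq Stranded mRNA or NEBNext Ultra II, and sequenced on either of 2 instruments, and no source used here says which library had which, so a part of the kit in these ratios was not tested.

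The profiles over the 8 libraries were last compared with those of 14081 genes, by the root mean square difference of log2 levels centred on each gene's mean. For *Ndn* the nearest were 4930402H24Rik (0.145), Gm16008 (0.150) and *Ankrd29* (0.172). For *Magel2* they were *Bhlhe22* (0.236), *Ajm1* (0.238) and *Septin3* (0.239), and for *Peg12* *Fam181b* (0.287), *Adgrv1* (0.291) and *Msi1* (0.314), the last an RNA-binding protein of neural precursors and 1 of the 10 markers summed above. *Snrpn* was nearest to *Hook1* (0.115), *Tpbg* (0.144) and *Upf3b* (0.185), *Mkrn3* to *Tspyl2* (0.127), *Rimklb* (0.129) and *Atp8a1* (0.138), *Ube3a* to *Csnk1g1* (0.0336), *Dmtf1* (0.0621) and *Adgrl1* (0.0782), and *Atp10a* to *Lpar4* (0.280), *Ccdc85b* (0.283) and *Hacd1* (0.302). Neighbours in the domain were not nearest in profile. *Ndn* and *Magel2* were each other's nearest member (0.535), with 624 genes nearer to *Ndn* and 306 nearer to *Magel2*. For *Peg12* the nearest member was *Magel2* (0.613), with 244 genes nearer. For *Snrpn* it was *Ube3a* (0.795), with 5190 genes nearer.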

How the data were processed

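PolyA RNA-seq counts were taken from 2 libraries in each of the 4 groups of stage and cross. Per the study's methods, the authors mapped read pairs with TopHat2 on the mm39 genome, with positions that differ between the strains masked, and kept proper pairs (minimum mapping quality 20). The values they deposited are raw counts per gene, summed over both alleles, for 26263 genes. The submitters' processing notes name HTSeq, DESeq2 and edgeR without versions, and the strand setting of the counting was not found in the sources used. Entries that name no gene were left out of all totals (reads outside genes, 5.76% to 10.9%, and ambiguous reads, 0.355% to 0.554% per library).

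The fits were made with edgeR 4.0.16 in R 4.3.3 (TMM, filterByExpr with a minimum count of 10, robust quasi-likelihood fits of the 4 group means over all 8 libraries, common dispersion 0.113) and, as alternatives, DESeq2 1.42.0 and limma 3.58.1 (voom). Adjustment was by Benjamini-Hochberg over 16399 genes. The tests were tested on simulated data. The *Snrpn* share was tested with two-sided exact permutations, enumerated in Python 3.11.15, and its binomial intervals were computed with scipy 1.17.1. Genes were placed with GENCODE vM39. The 7 genes, the gene lists and the marker lists were chosen with earlier results of these data known. Named were all 7 genes, *Snrpb*, the flanking genes, at most the 2 largest rises and 2 largest falls of each list past the threshold with a mean of at least 1 CPM, the cell type markers *Nes* and *Tubb3* and, for each of the 7 genes, the 3 most similar profiles. 1 flanking gene is not reported here. *Msi1* was named by the last part of this rule, *Sox2* and *Stmn2*, the markers called lower, and *Vps26b* after their values were seen, and *Mkrn2* and *Snhg14* with their lists. Binomial intervals cover counting error only.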

Additional observations from a re-analysis of the deposited data

How the results depend on the processing

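Over both crosses, *Ndn*, *Magel2* and *Peg12* were called higher under all 18 alternatives and *Snrpn* lower under 17, the exception being scaling to the housekeeping genes (-0.76). The number of members called was 4 to 5 when single libraries were left out, 6 with library totals and 5 after scaling to the housekeeping genes. Within B/J it was 4, and 2 with limma-voom, where *Magel2* (limma-voom adjusted p = 0.0517) and *Peg12* (0.0552) were lost, 3 with library totals or the housekeeping genes, where *Snrpn* was lost, and 2 to 4 when single libraries were left out. Within J/B it was 3, 4 with DESeq2 (*Snrpn* added) and with library totals or the housekeeping genes (*Mkrn3* added), and 2 to 4 when single libraries were left out. No member was called between the crosses or for the interaction under any alternative.

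The replicate numbers pair samples only in part. Deviations of same-numbered libraries correlated at 0.518 between the ESC groups and 0.587 between the NPC groups, but at 0.0489 to 0.0915 between stages. With a replicate block, 4 members were called over both crosses, 4 in B/J and 4 in J/B, where *Snrpn* reached -1.09 (edgeR adjusted p = 0.00358), and none between the crosses or for the interaction. Of all 16399 genes, 12010, 10100 and 9760 were called over both crosses, in B/J and in J/B, beside 11378, 9143 and 8935 without the block. With a replicate block within each stage, an alternative chosen after the data were seen, 5 members were called in J/B, *Peg12* lost its call in B/J (1.51, edgeR adjusted p = 0.0544), *Atp10a* was called over both crosses (1.54, edgeR adjusted p = 0.0184), and *Mkrn3* turned to -0.078 over both crosses and -0.40 in B/J without a call. Of all genes, 11486, 10236 and 9915 were then called over both crosses, in B/J and in J/B. For the *Snrpn* share, permutation within replicate number gave an exact p of 0.556 (smallest possible 0.0556).

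The sign of several values without a call turned. *Ube3a* in J/B (-0.01) was 0.010 with RLE factors (DESeq2 0.010), 0.0074 with a minimum mean of 1 CPM, 0.026 without the filter, 0.47 with library totals and 0.74 after scaling to the housekeeping genes, which also gave 0.068 for its interaction (-0.16). Between the crosses in ESCs, *Snrpn* (-0.03) was 0.017 with library totals and *Mkrn3* (0.02) was -0.012 without the filter. With single libraries left out, the values that changed sign, all of them without a call when all 8 libraries were used, had these ranges. Between the stages over both crosses they were *Atp10a* -0.081 to 1.26 and *Ube3a* -0.040 to 0.16. Between the stages in B/J they were *Atp10a* -0.33 to 0.49, *Mkrn3* -0.30 to 0.39 and *Ube3a* -0.056 to 0.35. Between the stages in J/B they were *Ube3a* -0.19 to 0.15 and *Atp10a* -0.18 to 2.50. For the interaction they were *Magel2* -0.31 to 1.03, *Atp10a* -0.20 to 2.47, *Ndn* -0.25 to 0.74 and *Ube3a* -0.37 to 0.032. Between the crosses in ESCs they were *Ndn* -0.24 to 0.058, *Peg12* -0.11 to 0.22, *Snrpn* -0.54 to 0.36, *Mkrn3* -0.12 to 0.14 and *Atp10a* -2.24 to 0.43. Between the crosses in NPCs they were *Ndn* -0.33 to 0.65, *Ube3a* -0.15 to 0.25 and *Atp10a* -0.11 to 0.48. The difference in the *Snrpn* share ran from -2.90 to 0.40 percentage points. The cause of these changes was not tested. The lowest count of a member in a library was 44. In some groups the 95% Poisson intervals of the 2 libraries lay apart, as for *Snrpn* in B/J ESCs (22.4 to 26.5 and 37.0 to 42.15 CPM). In others they overlapped, as for *Mkrn3* in B/J ESCs (9.47 to 12.2 and 7.93 to 10.4 CPM).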
